A study of Mus musculus with 9 samples.

Results

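The genes described here are 39 markers of microglia, the resident macrophages of the retina, and of the myeloid lineage to which they belong. They were taken by symbol from a table of 25108 genes and gene models, and all 39 were found. They fall into 3 roles: 10 homeostatic genes, 18 genes of activated microglia and 11 general myeloid genes. The values come from RNA sequencing of mouse retina in 9 libraries, 3 in each of 3 groups. RA WT libraries were from wild-type mice kept in room air, OIR WT libraries from wild-type mice with retinopathy induced by oxygen (OIR), and OIR KO libraries from IL-19 knockout mice with the same retinopathy. In this model, young pups are exposed to high oxygen, lose retinal capillaries, and grow new vessels after return to room air. All mice were of strain C57BL/6 and were sampled at postnatal day 17, and IL-19 is a cytokine of the interleukin-10 family. The knockout could be compared with wild type in retinopathy only, since room air retinas of the knockout are not analysed here. The labels do not say whether the knockout is in all cells or in some, or whether a library holds the retinas of 1 mouse or a pool. Nothing in them says that the libraries of a group came from separate animals, and the p-values rest on the scatter among these libraries.

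Microglia settle in the retina before birth and survive on signals through the receptor Csf1r, under the control of the transcription factor PU.1, which the gene Spi1 encodes. In undisturbed tissue they carry a set of surface sensors, such as the ADP receptor P2ry12 and the fractalkine receptor Cx3cr1, that serve as their homeostatic signature. Around damage, debris or growing vessels they can lose that signature and switch on genes for phagocytosis, lipid handling and lysosomal digestion, in part through the receptor Trem2 and its adaptor Tyrobp.

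Levels are given in FPKM, fragments scaled to the length of the transcript and to the mapped depth of the library, which is a level per length. Differences are on the log2(FPKM + 0.5) scale, with a standard error (SE) from limma, and understate the change of genes at low FPKM. A gene was called where the limma p adjusted by Benjamini-Hochberg over the 15678 genes tested was under 0.05. Means are given ± SD with n = 3 libraries. Of the 39 genes, 36 reached 0.5 FPKM in at least 3 libraries and were tested. Of these 36, the genes Cst7, Itgam, Spi1 and Cd53 reached that level in no RA WT library, so they entered the test through the retinopathy libraries. Gpr34, P2ry13 and Siglech reached it in 1 RA WT library, and Aif1 and Cd14 in 2, so they too needed retinopathy libraries to pass. Itgax, Clec7a and Ptprc did not pass. In bulk retina, fewer cells of a type and less RNA per cell cannot be told apart.

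The libraries differed in ways other than their group. Summed FPKM of 4 Y-linked genes was 0 in RA WT 2 and OIR KO 1, 32.9 in RA WT 3 and 48.1 to 64.4 in the other 6 libraries. Only males carry these genes, so neither the 3 RA WT nor the 3 OIR KO libraries can all stem from a single source of tissue. In OIR WT the sums were 48.1 to 64.4, and there technical and biological scatter cannot be told apart. Results without both RA WT 2 and OIR KO 1 are given below for some genes and counts, not for all. The sources used here do not state the depth. Relative depth, estimated from the best-fitting step of the low values, lay between 0.853 and 1.13 of the mean. Only 12.5 to 28.2% of these values lay within 0.02 of a whole multiple of the step, so the estimate is rough. Il19, the targeted gene, was listed at 0.0406 FPKM in RA WT 1 and at 0 in the other 8 libraries, so its level does not check the genotype. All 10 genes that define retina, rhodopsin among them, were detected, and their summed level was 7588 to 11050 FPKM in each library.

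In room air the roles lay at very different levels. Apoe, a lipid carrier, was the highest of all 39 genes at 615 ± 122 FPKM. The lysosomal proteases Ctsd, Ctsb and Ctsl stood at 152 ± 27.9, 80.1 ± 7.75 and 52.5 ± 5.18 FPKM, and the tetraspanins Cd9 and Cd63 at 48.5 ± 7.81 and 39.8 ± 7.10 FPKM. Ctss, a cathepsin of myeloid cells, was the highest general myeloid gene at 7.42 ± 0.498 FPKM. Csf1r was the highest homeostatic gene at 2.02 ± 0.266 FPKM, and P2ry12 lay at 1.60 ± 0.597 FPKM. Apoe and Cd9 are also on the list of Müller glia markers, so their level in bulk retina is not a level of microglia alone.

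Promoters are shown for Lyz2, Trem2 and Cd68, a lysozyme, a lipid receptor and a lysosomal glycoprotein of the activated role, as examples chosen after the matches were seen, among the genes called in both retinopathy groups against room air. RefSeq windows of build GRCm38.p6, from 250 bases before to 50 bases after the start, were matched for 30 of the 39 genes. The 200 bases shown lie at chr10:117282322-117282521 on the minus strand for Lyz2, chr17:48346201-48346400 on the plus strand for Trem2 and chr11:69666171-69666370 on the minus strand for Cd68. They are written 5′ to 3′ on the gene's own strand. Capitals mark the letters AGGAAGT, the core recognised by PU.1, in Lyz2 (on the opposite strand). In Trem2 and Cd68 they mark TGANTCA, a looser form of the AP-1 site with any base at N. AP-1 recognises C or G at N, which Cd68 has (TGAGTCA) and Trem2 has not (TGAATCA).
Lyz2: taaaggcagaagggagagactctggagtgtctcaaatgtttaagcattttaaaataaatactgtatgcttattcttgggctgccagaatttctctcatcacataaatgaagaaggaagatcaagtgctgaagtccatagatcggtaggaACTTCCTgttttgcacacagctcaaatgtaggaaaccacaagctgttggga
Trem2: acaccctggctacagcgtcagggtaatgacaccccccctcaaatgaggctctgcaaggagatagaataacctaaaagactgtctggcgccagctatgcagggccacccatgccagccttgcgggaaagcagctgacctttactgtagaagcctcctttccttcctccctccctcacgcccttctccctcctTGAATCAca
Cd68: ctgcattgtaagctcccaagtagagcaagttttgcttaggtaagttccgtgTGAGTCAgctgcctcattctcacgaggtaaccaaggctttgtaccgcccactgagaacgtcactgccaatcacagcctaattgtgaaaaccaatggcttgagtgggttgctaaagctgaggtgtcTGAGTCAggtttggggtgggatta
Both strands were searched. AGGAAGT was found for 8 of the 30 genes (26.7%) against 10.7% of 27025 genes with a window, where a gene counts if any of its windows matched. The 8 were Fcrls and P2ry12 of the homeostatic role, Cst7, Lyz2 and Spp1 of the activated role, and Cd53, Ctss and Ptprc of the general myeloid role. The longer GAGGAAGT was in 3 of 30 (10%, against 3.69% of all) and the shorter GAGGAA, which the longer one contains, in 17 of 30 (56.7%, against 31.3%). TGANTCA, with any base at N, was found for 5 genes, Cd68, Cst7, Gpnmb, Itgax and Trem2, against 8.97% of all genes. All 5 were among the 15 activated genes with a window, and none was among 6 homeostatic and 9 general myeloid genes. The E-box TCACGTG was in 3 of 30 (10%, against 4.29%). These matches describe letters in a window and are not binding sites shown by these data.

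The first comparison asks how the microglial genes differed between retinopathy and room air in wild-type mice. Of the general myeloid genes, 7 of 10 tested were called higher and none lower, in a table where 8.04% of tested genes were called higher and 7.92% lower. Activated genes split, with 7 of 16 called higher, none lower, and the abundant lysosomal proteases and Apoe not called. Of the 10 homeostatic genes only Fcrls and Csf1r were called higher, and none was called lower. The median difference was 0.10 over the homeostatic, 0.82 over the activated and 1.04 over the general myeloid genes tested, against 0.02 over all genes tested. The calls include Cst7, Spi1 and Cd53, and the medians include these and Itgam. All of these entered the test through the retinopathy libraries, so the filter favoured a higher level there. The medians also include Gpr34, P2ry13, Siglech, Aif1 and Cd14, which needed retinopathy libraries to pass. FPKM of the 3 OIR WT libraries lay above all 3 RA WT libraries for 3 of 10 homeostatic, 11 of 18 activated and 11 of 11 general myeloid genes, against 17.8% of all genes tested. For no gene of the 39 did they lie below, against 17.2% of all genes tested. The genes that lay above include Itgax, Clec7a and Ptprc, which were not tested, while the shares cover tested genes only.

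**Figure D1:**
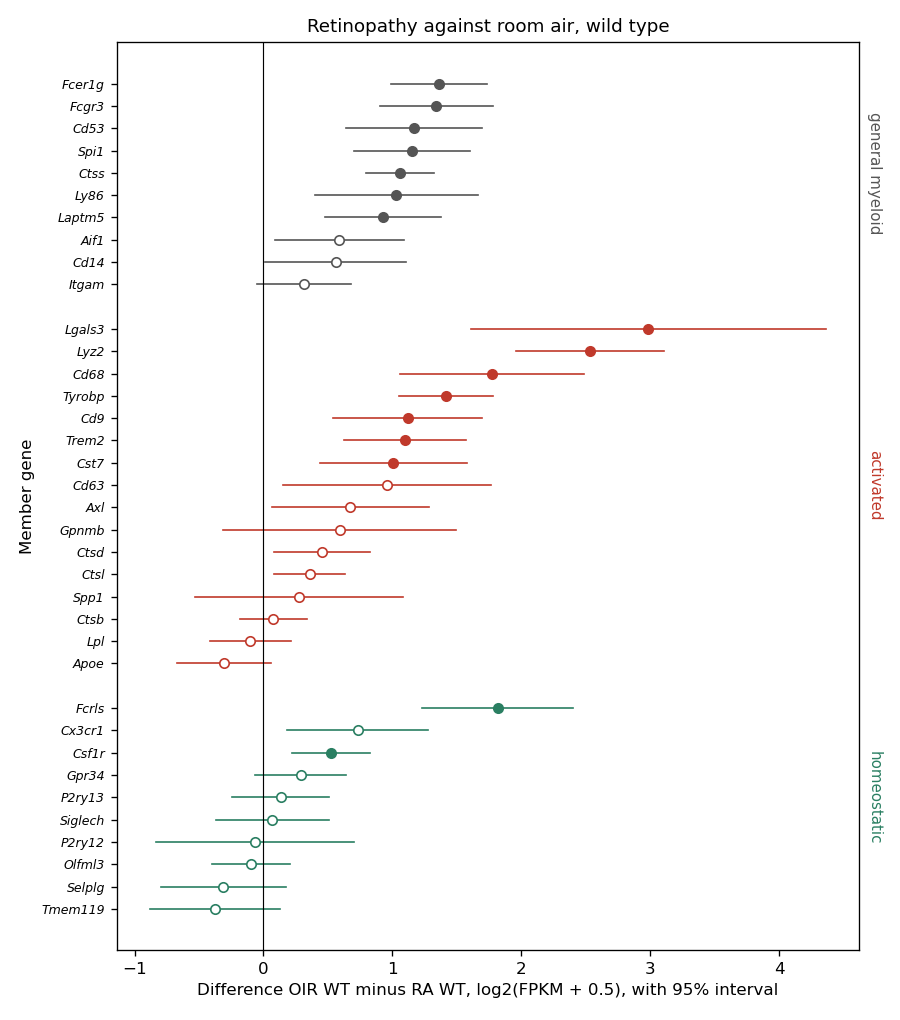
Difference between OIR WT and RA WT for each tested gene (horizontal axis, log2(FPKM + 0.5), with the 95% interval as a line), grouped by role, with called genes as filled points. Homeostatic genes lie around a median of 0.10, with Fcrls at 1.82, while all general myeloid genes lie above 0.

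P2ry12, Tmem119, Selplg and Olfml3 were not called between room air and retinopathy, and their groups overlapped. P2ry12 (GRCm38, chr3:59216272-59262871) was at 1.77, 2.10 and 0.938 FPKM in RA WT, 0.964, 1.95 and 1.56 in OIR WT and 2.78, 0.893 and 2.08 in OIR KO. Every group of P2ry12 held a library below 1 FPKM, and the groups overlapped throughout. Its difference between OIR WT and RA WT was -0.06 (SE 0.34, 95% interval -0.83 to 0.70, limma adjusted p = 0.922), a sign that turned to 0.11 without RA WT 2 and OIR KO 1. Tmem119, a transmembrane protein of microglia, was at 0.718, 1.15 and 1.35 FPKM in RA WT, 0.477, 0.844 and 0.790 in OIR WT and 1.36, 1.01 and 0.690 in OIR KO. The OIR WT libraries held its lowest value and overlapped RA WT, with a difference of -0.38 (95% interval -0.88 to 0.13, adjusted p = 0.292). Selplg, the ligand of P-selectin, was at 1.48, 2.01 and 2.38 FPKM in RA WT, 1.11, 1.34 and 2.04 in OIR WT and 1.95, 1.37 and 1.28 in OIR KO. Its groups overlapped, with a difference of -0.31 between OIR WT and RA WT (95% interval -0.79 to 0.17, adjusted p = 0.370). Olfml3, a secreted olfactomedin-like protein, was the steadiest of the role at 1.89, 1.66 and 1.74 FPKM in RA WT, 1.46, 1.59 and 1.82 in OIR WT and 1.73, 1.90 and 1.48 in OIR KO. That difference was -0.09 (95% interval -0.40 to 0.21, adjusted p = 0.680).

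P2ry13, a receptor for ADP beside P2ry12 on the chromosome, was at 0.439, 0.538 and 0.243 FPKM in RA WT, 0.497, 0.545 and 0.416 in OIR WT and 0.480, 0.397 and 0.552 in OIR KO. Siglech, a sialic acid receptor, was at 0.551, 0.388 and 0.261 FPKM in RA WT, 0.306, 0.499 and 0.520 in OIR WT and 0.555, 0.270 and 0.524 in OIR KO. Both lay near the filter in every library, and their differences between OIR WT and RA WT of 0.13 and 0.07 were smaller than their SE of 0.17 and 0.20. The sign of both turned without RA WT 3, to -0.0036 for P2ry13 and -0.045 for Siglech. Gpr34, a receptor for lysophosphatidylserine, was at 0.354, 0.542 and 0.301 FPKM in RA WT, 0.655, 0.490 and 0.638 in OIR WT and 0.815, 0.957 and 0.784 in OIR KO. The OIR KO libraries of Gpr34 lay above all 6 others, while OIR WT overlapped RA WT with a difference of 0.29 (95% interval -0.06 to 0.64, adjusted p = 0.250).

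Fcrls stood apart from the other homeostatic genes. This Fc receptor-like scavenger receptor of mouse microglia (chr3:87250758-87263738, minus strand) was at 0.844, 0.859 and 0.620 FPKM in RA WT, 4.51, 2.64 and 5.17 in OIR WT and 2.94, 3.02 and 1.55 in OIR KO. Every retinopathy library exceeded every room air library. In OIR WT the mean of 4.11 ± 1.31 FPKM was 5.30 times that of RA WT, a rise of 1.82 (SE 0.26, limma adjusted p = 0.00337) that was called in all 6 refits that left out 1 library of the comparison. Csf1r, the receptor for the survival factors Csf1 and Il34, was at 1.86, 1.87 and 2.33 FPKM in RA WT, 2.81, 3.01 and 3.57 in OIR WT and 3.46, 3.10 and 2.98 in OIR KO. These groups did not overlap, and the ratio of the means was 1.55. Csf1r rose by 0.53 (SE 0.14, adjusted p = 0.0287), and this did not hold when RA WT 1, RA WT 2 or any of the OIR WT libraries was left out (adjusted p from 0.0522 to 0.103). Nor did it hold without both RA WT 2 and OIR KO 1 (adjusted p = 0.116). Exons of Csf1r and of Hmgxb3 on the opposite strand share up to 873 bases, and without a known strand setting their reads cannot be told apart. Hmgxb3 itself averaged 9.65 FPKM in room air and 9.74 in OIR WT. Cx3cr1 (chr9:119901616-120069879, minus strand) was at 1.32, 1.18 and 1.44 FPKM in RA WT, 2.23, 2.88 and 2.44 in OIR WT and 0.726, 2.07 and 1.65 in OIR KO. The OIR WT libraries of Cx3cr1 lay above all others. Its difference from RA WT of 0.73 (SE 0.24, 95% interval 0.19 to 1.27) was not called (adjusted p = 0.0703), and was called when only these groups were fitted (adjusted p = 0.0144).

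**Figure D2:**
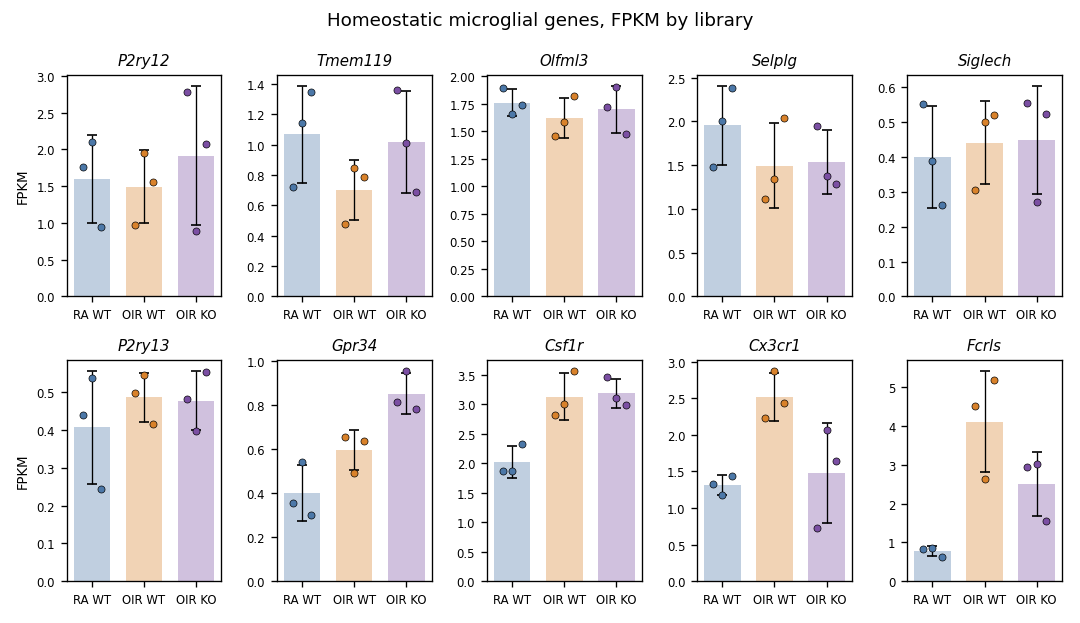
FPKM of the homeostatic genes in each library (points), with group means (bars) and SD (error bars), n = 3 per group. Fcrls is at 0.620 to 0.859 FPKM in room air and at 1.55 to 5.17 FPKM in the retinopathy libraries, while the groups of P2ry12 overlap.

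The 7 activated genes that rose in OIR WT did so by 1.01 (Cst7) to 2.98 (Lgals3). Lgals3, galectin-3, a sugar-binding protein of phagocytes (chr14:47367751-47386160), was at 0.789, 0.775 and 1.21 FPKM in RA WT, 14.6, 6.12 and 13.5 in OIR WT and 3.53, 16.3 and 2.78 in OIR KO. All retinopathy libraries exceeded room air, but OIR WT 2, OIR KO 1 and OIR KO 3 were far below the other 3. In OIR WT, Lgals3 rose by 2.98 (SE 0.60, limma adjusted p = 0.0149), a call lost without OIR WT 1 or OIR WT 3 (adjusted p = 0.0588 and 0.0522). Lyz2, lysozyme M (chr10:117277331-117282321, minus strand), was at 0.748, 0.607 and 0.844 FPKM in RA WT, 6.04, 6.01 and 7.97 in OIR WT and 4.23, 6.41 and 2.58 in OIR KO. The groups RA WT and OIR WT were wide apart, with a ratio of means of 9.10. Lyz2 rose by 2.53 (SE 0.26, adjusted p = 0.000706) and kept its call in all 6 refits without 1 library. Lyz1, its near-identical copy, lay between 0 and 0.526 FPKM, and the sources used here do not say how reads shared by the copies were split.

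Cd68 was at 1.25, 2.14 and 1.16 FPKM in RA WT, 6.99, 4.18 and 8.20 in OIR WT and 4.98, 7.04 and 3.10 in OIR KO. Each retinopathy library lay above each room air library, with a rise in OIR WT of 1.77 (SE 0.32, limma adjusted p = 0.00772). Tyrobp, the signalling adaptor of Trem2 (chr7:30413760-30417585), was at 2.05, 2.90 and 3.06 FPKM in RA WT, 7.78, 7.27 and 8.61 in OIR WT and 5.77, 7.84 and 5.72 in OIR KO. The RA WT and OIR WT libraries of Tyrobp were wide apart, and it rose by 1.41 (SE 0.16, adjusted p = 0.00142). Trem2 (chr17:48346401-48354147) was at 1.22, 1.19 and 1.68 FPKM in RA WT, 2.47, 3.55 and 4.68 in OIR WT and 3.02, 3.89 and 2.84 in OIR KO. Receptor and adaptor thus both lay higher in every retinopathy library, and Trem2 rose by 1.10 (SE 0.21, adjusted p = 0.00919). Cd68, Tyrobp and Trem2 were called in all 6 refits without 1 library, and Trem2 alone of these lost its call without both RA WT 2 and OIR KO 1 (adjusted p = 0.0577).

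Cd9, a tetraspanin of many cell types, was at 41.3, 56.8 and 47.4 FPKM in RA WT, 113, 80.2 and 128 in OIR WT and 89.0, 137 and 70.4 in OIR KO. All retinopathy libraries were higher, and Cd9 rose by 1.12 in OIR WT (SE 0.25, limma adjusted p = 0.0204). Leaving out RA WT 1 or 3, or OIR WT 1 or 3, ended the call (adjusted p from 0.0602 to 0.0740). Its exons share up to 218 bases with Gm26728 on the opposite strand. Cst7, cystatin F, an inhibitor of lysosomal proteases, was at 0.0938, 0.0192 and 0 FPKM in RA WT, 0.649, 0.484 and 0.608 in OIR WT and 0.732, 0.605 and 0.0980 in OIR KO. It was near 0 in room air and in no OIR WT library above 0.649 FPKM, and rose by 1.01 (SE 0.26, adjusted p = 0.0264). Leaving out RA WT 2 or 3, or OIR WT 1 or 3, ended that call (adjusted p from 0.0753 to 0.0883). Without OIR WT 1, and again without OIR WT 3, 4 activated genes were called in place of 7, and 3 (Lyz2, Tyrobp and Cd68) without both RA WT 2 and OIR KO 1.

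**Figure D3:**
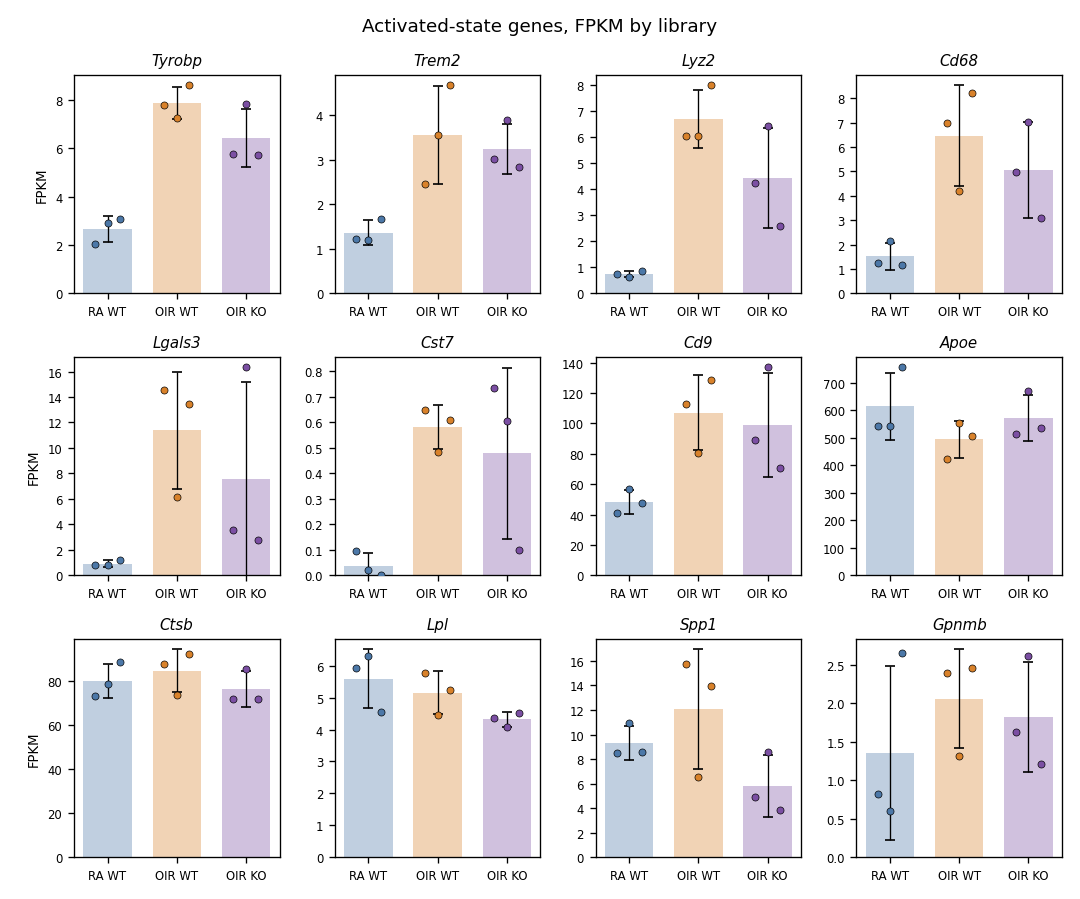
FPKM of 12 activated genes in each library (points), with group means (bars) and SD (error bars), n = 3 per group; each panel has its own scale. Tyrobp, Trem2, Lyz2 and Cd68 are higher in every retinopathy library than in room air, while the groups of Apoe and Ctsb overlap.

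The 9 activated genes that were tested and not called included the most abundant. Apoe was at 544, 545 and 757 FPKM in RA WT, 424, 556 and 507 in OIR WT and 513, 670 and 535 in OIR KO. Its groups overlapped, and its difference of -0.30 between OIR WT and RA WT was the lowest of the role (95% interval -0.67 to 0.06, limma adjusted p = 0.243). The lysosomal proteases Ctsb, Ctsl and Ctsd differed by 0.08, 0.36 and 0.45 (adjusted p = 0.698, 0.0797 and 0.0953), and the groups of all 3 overlapped. Exons of Ctsb share up to 774 bases with Fdft1, those of Ctsl up to 977 bases with Gm47123 and those of Ctsd up to 227 bases with Gm49369. Cd63, a tetraspanin of lysosomes, was at 79.5 ± 23.1 FPKM in OIR WT against 39.8 ± 7.10 in RA WT, and Axl, a receptor for dying cells, at 7.84 ± 1.84 against 4.69 ± 0.908 FPKM. Neither overlapped between the groups, and neither was called (0.96 and 0.67, adjusted p = 0.105 and 0.127). Both were called when only these groups were fitted (adjusted p = 0.0364 and 0.0480). Gpnmb, a glycoprotein of lipid-laden phagocytes, ranged from 0.599 to 2.65 FPKM within RA WT alone. Its difference was 0.59 with a 95% interval of -0.31 to 1.49. Lpl, lipoprotein lipase, and Spp1, the secreted protein osteopontin, differed by -0.10 and 0.28 (adjusted p = 0.672 and 0.641).

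Itgax, the integrin CD11c, and Clec7a, the receptor dectin-1, were below the filter and were fitted without it. Itgax was at 0, 0 and 0.0217 FPKM in RA WT, 0.258, 0.0987 and 0.373 in OIR WT and 0.123, 0.187 and 0.0822 in OIR KO. Clec7a was at 0.102, 0.0251 and 0.0578 FPKM in RA WT, 0.519, 0.392 and 2.02 in OIR WT and 0.313, 0.461 and 0.178 in OIR KO. Both were higher in every retinopathy library. Without the filter, where 5.42% of genes were called higher, Itgax was called (limma adjusted p = 0.0365) and Clec7a was not (adjusted p = 0.0573).

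The 7 general myeloid genes that rose in OIR WT did so by 0.93 (Laptm5) to 1.36 (Fcer1g). Fcer1g, the signalling chain of Fc receptors, was at 2.48, 3.62 and 2.79 FPKM in RA WT, 8.18, 8.36 and 8.41 in OIR WT and 7.48, 8.33 and 5.40 in OIR KO. Fcgr3, an IgG receptor, was at 1.36, 1.97 and 1.14 FPKM in RA WT, 3.62, 4.65 and 5.28 in OIR WT and 3.66, 3.52 and 2.62 in OIR KO. Chain and receptor were higher in each retinopathy library, and rose in OIR WT by 1.36 and 1.34 (SE 0.17 and 0.20, limma adjusted p = 0.00181 and 0.00343). Ctss was at 7.01, 7.98 and 7.27 FPKM in RA WT, 14.3, 15.3 and 18.6 in OIR WT and 16.1, 14.7 and 13.4 in OIR KO. Its room air and retinopathy libraries were separated by over 5 FPKM, and it rose by 1.06 (SE 0.12, adjusted p = 0.00124). Spi1, which encodes PU.1, was at 0.105, 0.251 and 0.468 FPKM in RA WT, 1.36, 1.03 and 1.19 in OIR WT and 1.36, 1.45 and 2.04 in OIR KO. It lay under the filter in room air and above 1 FPKM in all retinopathy libraries, and rose by 1.15 (SE 0.20, adjusted p = 0.00647). Cd53, a leukocyte tetraspanin, was at 0.370, 0.475 and 0.471 FPKM in RA WT, 1.52, 1.28 and 2.10 in OIR WT and 1.38, 1.38 and 0.572 in OIR KO. It rose by 1.17 (SE 0.24, adjusted p = 0.0112), and OIR KO 3 was the retinopathy library nearest to room air. Fcer1g, Fcgr3, Ctss, Spi1 and Cd53 were called in all 6 refits without 1 library.

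Ly86, a partner of a Toll-like receptor homologue, was at 2.03, 2.93 and 0.984 FPKM in RA WT, 4.12, 4.19 and 4.57 in OIR WT and 4.51, 4.97 and 2.95 in OIR KO. Its OIR WT libraries were tight and its RA WT libraries spread. Ly86 rose by 1.03 (SE 0.28, limma adjusted p = 0.0362), a call lost in each refit without 1 library except that without RA WT 2 (adjusted p from 0.0667 to 0.104). Laptm5, a lysosomal protein of blood cells, was at 1.28, 1.36 and 1.81 FPKM in RA WT, 2.87, 2.66 and 4.44 in OIR WT and 2.82, 2.89 and 2.06 in OIR KO. It was higher in every retinopathy library and rose by 0.93 (SE 0.20, adjusted p = 0.0147), and was no longer called when RA WT 2 was left out (adjusted p = 0.0504). Without both RA WT 2 and OIR KO 1, Laptm5 was not called either (adjusted p = 0.0757). Aif1, the microglial stain Iba1, Cd14, a coreceptor for lipopolysaccharide, and Itgam, the integrin CD11b, did not overlap between the groups and were not called (0.59, 0.56 and 0.32, adjusted p = 0.107, 0.154 and 0.223). Ptprc, the leukocyte antigen CD45, was below the filter at 0.0898 to 0.131 FPKM in RA WT and 0.358 to 0.408 FPKM in OIR WT. Fitted without the filter, it was called (0.56, adjusted p = 0.0101).

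Set against the general myeloid genes of the same library, the homeostatic genes lay lower in retinopathy. Their own sum was 11.2 to 12.3 FPKM in RA WT, 15.0 to 19.0 in OIR WT and 13.6 to 16.8 in OIR KO. That sum was higher in every retinopathy library than in room air. The lower place is thus relative to general myeloid genes, whose median difference in OIR WT was 1.04 against 0.10 for the homeostatic genes. The median homeostatic gene minus the median general myeloid gene was 0.32, 0.09 and 0.30 in RA WT, -0.77, -0.27 and -0.71 in OIR WT and -0.30, -0.61 and -0.44 in OIR KO. It was above 0 in all room air and below 0 in all retinopathy libraries. The same difference for the activated genes was 2.11, 1.87 and 2.08 in RA WT, 2.11, 1.53 and 1.73 in OIR WT and 1.23, 2.11 and 1.13 in OIR KO, and these groups overlapped. After subtraction of the general myeloid median, 9 of 10 homeostatic genes were lower in OIR WT than in RA WT, with Fcrls (0.78) the exception, and the median was -0.93. Of 16 activated genes, 10 were lower on this scale, with a median of -0.22, while Lgals3 (1.95), Lyz2 (1.50) and Cd68 (0.74) were the highest. These are descriptions of 3 libraries a group and carry no test, and the scale depends on which genes stand for the lineage. Itgam, Spi1 and Cd53 are among those genes and passed the filter through the retinopathy libraries. Aif1 and Cd14 are also among them and needed retinopathy libraries to pass.

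**Figure D4:**
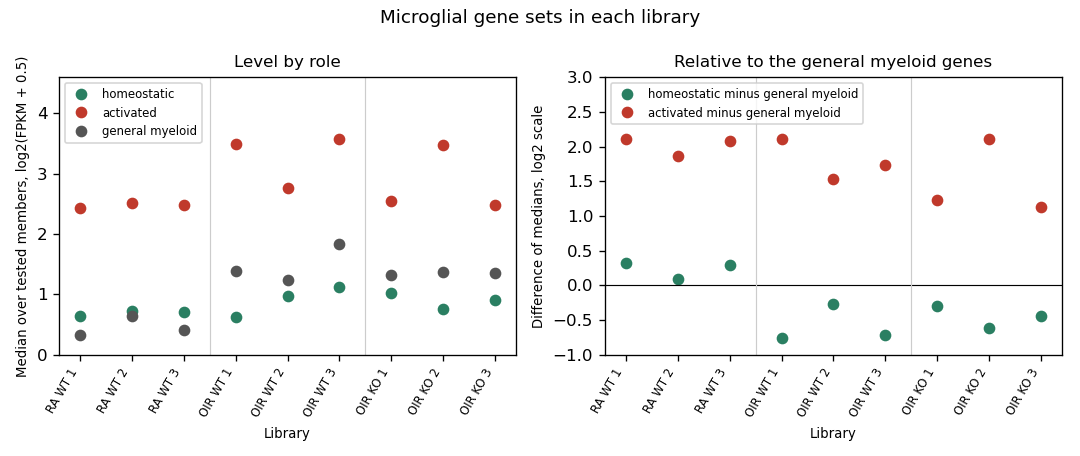
Left, median log2(FPKM + 0.5) of the tested genes of each role in each library. Right, the homeostatic and the activated median minus the general myeloid median of the same library, where the homeostatic points pass from 0.09 to 0.32 in room air to -0.77 to -0.27 in retinopathy.

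Other genes of the same biology were counted in fixed lists. Of 17 tested genes for survival and identity of microglia, 5 rose and none fell. Over all tested genes, 8.04% were called higher and 7.92% lower. Irf8, a transcription factor that acts with PU.1, went from 0.687 ± 0.103 to 3.30 ± 0.453 FPKM (1.67, limma adjusted p = 0.00232). Tgfb1, the cytokine that maintains the homeostatic state, went from 1.90 ± 0.472 to 6.12 ± 2.03 FPKM (1.43, adjusted p = 0.0116), a call lost without OIR WT 1 (adjusted p = 0.0508). Csf1, a ligand of Csf1r, went from 1.44 ± 0.134 to 3.33 ± 1.05 FPKM (0.94, adjusted p = 0.0286), and the transcription factor Bhlhe41 from 18.2 ± 1.25 to 27.2 ± 3.02 FPKM (0.56, adjusted p = 0.00970). The call for Csf1 held in 1 of the 6 refits, that without OIR WT 2, and had an adjusted p of up to 0.109 in the others. Of 14 tested genes of the Trem2 pathway, 3 rose and none fell: Ms4a6d (1.56), the kinases Lyn (1.05) and Syk (0.65), with adjusted p = 0.0110, 0.0333 and 0.0496. The calls for Lyn and Syk were lost in 5 of 6 refits without 1 library, kept for Lyn without OIR WT 2 and for Syk without RA WT 3, and that for Ms4a6d in none.

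A further 15 tested homeostatic genes held 4 that rose and none that fell, in the table with 8.04% of genes called higher and 7.92% lower. Among them were Rgs2, a regulator of G-protein signals (1.04), P2ry6, a receptor for UDP (0.98), and the tetraspanin Cd81 (0.43), with limma adjusted p = 0.00339, 0.0114 and 0.0215. Cd81 was no longer called when RA WT 1 or 2, or OIR WT 1 or 3, was left out. Of 22 further activated genes, 11 rose, and Mamdc2 fell by 0.87 (adjusted p = 0.00781). Cd52, a small surface glycoprotein (2.08), the chemokine Ccl3 (1.98), Ch25h, which makes 25-hydroxycholesterol (1.93), and the inhibitory receptor Lilrb4a (1.70) rose most, with adjusted p = 0.0101, 0.00324, 0.0131 and 0.00905. Lilrb4a was listed at 0 in all RA WT libraries. Neither Ccl3 nor Ch25h reached 0.5 FPKM there, nor did Ccl4 and Ccl6, which were also called. The count of 11 includes these genes, which entered the test through the retinopathy libraries. Of 18 further general myeloid genes tested, 14 rose and none fell. Fcgr2b, the inhibitory IgG receptor (1.80), the complement gene C1qb (1.74), the actin-bundling protein Lcp1 (1.65) and the complement gene C1qc (1.62) rose most, with adjusted p = 0.00701, 0.000124, 0.00276 and 0.000697. C1qb went from 4.39 ± 0.341 to 15.9 ± 2.01 FPKM. Fcgr2b lay between 0.0645 and 0.290 FPKM in RA WT, so it too entered the test through the retinopathy libraries. Of 22 general lysosomal genes, none rose and 3 fell: Psap by 0.36, Gaa by 0.36 and Atp6v1b2 by 0.32 (adjusted p = 0.0413, 0.0354 and 0.0463). These 3 calls were lost in 5, 5 and 6 of 6 refits without 1 library, and Psap and Gaa kept theirs without RA WT 1.

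Some markers of other myeloid and blood cells also moved with retinopathy, in the table with 8.04% of tested genes called higher and 7.92% lower. Of 10 monocyte markers, 4 were tested and 3 of these rose, Fn1 (2.13), Thbs1 (1.86) and Itga4 (1.63), which other retinal cells also express. Their adjusted p from limma was 0.00348, 0.0241 and 0.00471, and the call for Thbs1 was lost without any RA WT library or OIR WT 3. The summed monocyte list was 18.1 to 21.4 FPKM in RA WT, 61.2 to 87.2 in OIR WT and 43.2 to 92.1 in OIR KO. Of its defining markers, Ccr2 was listed at 0 in RA WT and at 0.0137 to 0.238 FPKM in retinopathy, and Chil3 at 0 in all 9 libraries. The 12 markers of border macrophages summed to 8.43 to 9.51 FPKM in RA WT, 10.98 to 11.9 in OIR WT and 10.8 to 15.5 in OIR KO. Of 4 tested, the scavenger receptor Stab1 rose by 1.37 (adjusted p = 0.00391) and Lyve1 fell by 0.77 (adjusted p = 0.00718). Of the 12 neutrophil markers, 9 were listed at 0 in all RA WT libraries, S100a8 and S100a9 among them. The sum of the 12 was 0.606 to 0.679 FPKM in RA WT, 1.25 to 2.54 in OIR WT and 1.13 to 1.61 in OIR KO. Most of the room air sum was Csf3r, at 0.481 to 0.567 FPKM, which is also on the list of further homeostatic genes. The 12 lymphocyte markers with values summed to 0.717 to 1.29, 1.42 to 1.72 and 1.26 to 1.61 FPKM, and Cd8a, the one tested, rose by 0.65 (adjusted p = 0.0200). The call for Cd8a was lost without RA WT 1, OIR WT 1 or OIR WT 3. Cd8a reached 0.5 FPKM in no RA WT library, and made up 0.849 to 0.929 FPKM of the sum in OIR WT. The T cell genes Cd3d, Cd3e and Cd3g were listed at 0 in all RA WT libraries and at no more than 0.0351 FPKM in retinopathy. All 5 tested genes of erythrocytes rose, led by Hbb-bs (3.31, adjusted p = 0.0398), and the list summed to 82.5 to 158 FPKM in RA WT, 512 to 1431 in OIR WT and 112 to 1070 in OIR KO. The 5 erythrocyte calls were each lost in at least 5 of 6 refits without 1 library. The part of these cells in the differences of the 39 genes was not tested.

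Glial markers moved as well, in the table with 8.04% of tested genes called higher and 7.92% lower. Of 13 markers of Müller glia, 3 rose, Cd9 among them, and 6 fell, led by the transporter Abca8a, which fell by 1.59, and glutamine synthetase, Glul, which fell by 1.29 (limma adjusted p = 0.00278 and 0.00745). Their sum, which includes Apoe and Cd9, was 2277 to 2896 FPKM in RA WT, 1521 to 1895 in OIR WT and 2092 to 2181 in OIR KO. Gfap, an intermediate filament of astrocytes and reactive Müller cells, was at 7.36, 6.78 and 17.7 FPKM in RA WT, 126, 46.8 and 148 in OIR WT and 45.5, 173 and 24.3 in OIR KO. The 3 libraries with the highest Gfap were those with the highest Lgals3, Cd63 and Cd9. The part of glial cells in the levels of Apoe, Cd9, Cd63 and the cathepsins was not tested. Of 12 ganglion cell markers, 8 fell in OIR WT and none rose, in the table with 7.92% of genes called lower. Their sum was 739 to 886 FPKM in RA WT, 466 to 531 in OIR WT and 328.5 to 512.6 in OIR KO. The part of ganglion cells and other retinal cells in the levels of Spp1 and Gpnmb was not tested either.

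The second comparison asks whether loss of IL-19 altered these genes in retinopathy. None of the 36 tested genes was called between OIR KO and OIR WT by limma, in a table where 0.134% of all tested genes were called in either direction. At an unadjusted p under 0.05 there were 4 of 36, all lower in OIR KO: Cx3cr1, Spp1, Lyz2 and Fcrls. Over all tested genes, 9.91% had such a p in either direction and 4.75% with a lower level in OIR KO. The median difference was 0.03 over the homeostatic, -0.18 over the activated and -0.10 over the general myeloid genes, against -0.0027 over all genes tested. Leaving out 1 library gave -0.03 (without OIR KO 1) to 0.13 (without OIR KO 3) for the homeostatic median. The activated median ran from -0.36 (without OIR KO 2) to -0.05 (without OIR KO 3), and the general myeloid median from -0.24 to 0.0035 without the same libraries. Of the activated genes, 14 of 16 had a negative difference, as had 8 of 10 general myeloid and 3 of 10 homeostatic genes, against 7948 of 15678 genes over the whole table. These counts carry no test. No gene of the 18 other lists, which add pigment epithelium and lens to those above, was called in this comparison.

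Cx3cr1 differed by -0.67 (SE 0.24, 95% interval -1.21 to -0.12, limma adjusted p = 0.423), with all OIR KO libraries (0.726, 2.07 and 1.65 FPKM) below all OIR WT libraries (2.23, 2.88 and 2.44 FPKM). Its OIR KO libraries overlapped room air. Without RA WT 2 and OIR KO 1 the difference of Cx3cr1 was -0.36 (adjusted p = 0.839), and OIR KO 1 was its lowest library. Spp1 was at 8.46, 10.9 and 8.55 FPKM in RA WT, 15.7, 6.54 and 14.0 in OIR WT and 4.95, 8.61 and 3.82 in OIR KO. OIR WT 2 lay among the OIR KO libraries, and the difference of Spp1 was -0.98 (SE 0.35, 95% interval -1.79 to -0.17, adjusted p = 0.423). Lyz2 and Fcrls differed by -0.61 and -0.62 (95% intervals -1.19 to -0.04 and -1.20 to -0.03, adjusted p = 0.476 and 0.480), and their groups overlapped. Without OIR KO 3 these differences were -0.32 and -0.36, and over all refits without 1 library they reached -0.90 for Lyz2 and -0.87 for Fcrls. Besides Cx3cr1, only Gpr34 and Spi1 did not overlap, both higher in OIR KO (0.31 and 0.31, adjusted p = 0.575 and 0.662). The share of all tested genes whose groups did not overlap was 9.73% higher and 7.98% lower.

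For several genes the intervals between the genotypes were narrow enough to bound the difference. That of Csf1r ran from -0.28 to 0.33, that of Ctss from -0.38 to 0.14 and that of Ctsb from -0.41 to 0.12. Trem2 and Tyrobp had intervals of -0.56 to 0.38 and -0.65 to 0.08. The widest was that of Lgals3, from -2.26 to 0.49, where OIR KO 2 (16.3 FPKM) was the highest of all libraries and OIR KO 1 and OIR KO 3 (3.53 and 2.78 FPKM) the lowest with retinopathy. Cd63 showed the same spread, at 52.9, 103 and 41.0 FPKM in OIR KO. A p that missed the threshold does not show that the genotypes were alike.

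The third comparison sets knockout retinopathy against wild-type room air and shares the RA WT libraries with the first and the OIR KO libraries with the second. In it 3 of 10 homeostatic, 5 of 16 activated and 4 of 10 general myeloid genes were called higher by limma and none lower, in a table with 4.75% of genes called higher and 5.69% lower. The OIR KO libraries lay above RA WT for 3 of 10, 10 of 18 and 9 of 11 genes of the roles, against 17.3% of all tested genes, and below for Lpl alone, against 15.4%. The untested Itgax, Clec7a and Ptprc are again among the genes that lay above. Medians were 0.10, 0.69 and 0.83, against 0.02 over all genes tested. They include Cst7, Itgam, Spi1 and Cd53, which entered the test through the retinopathy libraries, and Spi1 is also among the calls. So is Gpr34, which reached 0.5 FPKM in 1 RA WT library and needed retinopathy libraries to pass. P2ry13, Siglech, Aif1 and Cd14, which the medians also include, needed them too. The homeostatic genes called were Fcrls (1.20 here and 1.82 in OIR WT), Csf1r (0.55 and 0.53) and Gpr34 (0.60 and 0.29), with adjusted p = 0.0205, 0.0321 and 0.0414. Each of these lost its call in at least 3 of 6 refits without 1 library. Lyz2 (1.92 here and 2.53 in OIR WT), Tyrobp (1.13 and 1.41), Trem2 (1.01 and 1.10), Cd68 (1.43 and 1.77) and Cd9 (0.98 and 1.12) were the activated genes called. Their adjusted p was 0.00383, 0.00471, 0.0176, 0.0231 and 0.0438. The calls for Trem2, Cd68 and Cd9 were lost in 3, 4 and 5 of the 6 refits without 1 library, with an adjusted p of up to 0.0624, 0.0900 and 0.122. Of the general myeloid genes, Spi1 (1.46 here and 1.15 in OIR WT), Fcer1g (1.12 and 1.36), Ctss (0.94 and 1.06) and Fcgr3 (0.93 and 1.34) were called, with adjusted p = 0.00415, 0.00500, 0.00294 and 0.0179. Fcgr3 lost its call without RA WT 3, OIR KO 1 or OIR KO 2. Without both RA WT 2 and OIR KO 1, Ctss and Fcer1g were the only genes of the 39 still called, and 44 genes of the whole table were called higher in place of 744.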

How the data were processed

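RNA of 9 mouse retina samples, 3 per group, was taken up in Trizol, and sequencing libraries were built with the NEBNext Ultra chemistry, per the labels' protocols. HISAT2 and build GRCm38 are named per the submitters' processing notes. The sources used here do not give the version, the quantifier, the annotation release or the strand setting. What the authors deposited is a single FPKM table with a column per library, in which fragments are scaled by transcript length and mapped depth. Columns were matched to samples by the sample descriptions.

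Values were taken as log2(FPKM + 0.5), without further scaling, for genes with at least 0.5 FPKM in at least 3 of the 9 libraries. Group means were fitted over all 9 libraries with limma 3.58.1 (R 4.3.3) and trended, robust empirical Bayes moderation. Tests were two-sided, with Benjamini-Hochberg adjustment over 15678 genes. Python 3.11.15 was used for the other steps. Low values were not whole multiples of a step (12.5 to 28.2% lay within 0.02 of one), so reads could not be recovered and no count model was run. The fit was tested on simulated data. Coordinates came from GENCODE M21, which matched 39 of 39 genes, and promoters from RefSeq (GRCm38.p6), without entries for Lpl, Tyrobp, Selplg, Gpr34, Cd14, Spi1, Ctsb, Tmem119 and Csf1r.

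The genes and lists were chosen with earlier results of these data known. Values by library are given for every homeostatic gene, for up to 8 called genes with the largest difference between OIR WT and RA WT in each other role, for the 3 genes with the smallest p between OIR KO and OIR WT, and for the highest gene of each role. Of the other lists, up to 4 called genes are named. One gene that this rule would name is not reported here. Values by library of Itgax, Clec7a and Gfap, and further names, were added after values were seen. Alternatives were the pseudocount, the filter, the scaling, the groups and options of the fit, a replicate block, a Y-linked covariate and leaving out each library. Leaving out RA WT 2 and OIR KO 1 together, and the searches for TGANTCA and TCACGTG, were added after values were seen.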

Additional observations from a re-analysis of the deposited data

How the results depend on the processing

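No gene of the 39 was called lower in either comparison with room air, and none was called between OIR KO and OIR WT, under any setting run. Counts of genes called higher in OIR WT than in RA WT, leaving out 1 library at a time, ranged from 1 to 3 for homeostatic, 4 to 9 for activated and 6 to 7 for general myeloid genes. In OIR KO against RA WT they ranged from 0 to 3, 2 to 7 and 3 to 7. Without both RA WT 2 and OIR KO 1, the counts were 1 and 3 for homeostatic and activated genes in OIR WT, and 0, 0 and 2 for the 3 roles in OIR KO. The fit to only the groups compared called 1 homeostatic gene in OIR KO. With the Y-linked covariate, 1 homeostatic gene was called in OIR WT, and over all genes 740 were called higher and 673 lower in place of 1261 and 1242. Replicate numbers did not pair the libraries (correlation of deviations for the same number from -0.35 to 0.13). The replicate block called 1 homeostatic gene in OIR WT, and 1 homeostatic and 3 activated genes in OIR KO. In OIR WT it called 802 genes higher and 890 lower over the whole table, and in OIR KO against RA WT 411 and 670 in place of 744 and 892. A pseudocount of 1 lowered the general myeloid median in OIR WT from 1.04 to 0.83. The homeostatic median of 0.10 in OIR WT became -0.01 with quantile normalization, and leaving out 1 library gave -0.02 (without RA WT 3) to 0.18 (without RA WT 1). The activated median of 0.69 in OIR KO against RA WT ran from 0.34 (without OIR KO 2) to 0.91 (without OIR KO 3). Relative to the general myeloid median, the homeostatic and activated medians were -0.93 and -0.22 in OIR WT and -0.79 and -0.19 in OIR KO. Differences near 0 changed sign: P2ry12 to 0.12 with the Y-linked covariate, 0.11 without RA WT 2 and OIR KO 1, and 0.01, 0.11 and 0.14 without RA WT 1, RA WT 2 and OIR WT 1. Leaving out 1 library gave -0.32 to 0.14 for P2ry12, -0.0036 to 0.18 for P2ry13 and -0.045 to 0.19 for Siglech, which was at -0.042 with quantile normalization. The cause of these changes was not tested. Depth limits the genes under 1 FPKM, such as P2ry13, Siglech and Cst7, for which no counting interval could be given.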
